A study of Mus musculus with 6 samples.

Results

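Tet1, Tet2 and Tet3 encode the TET dioxygenases and make up 3 of the 48440 genes in a count table from mouse induced pluripotent stem cells (iPSCs) with and without a Cas9 knockout of Tet1. They were taken by gene name, with 1 row each, and all 3 passed the filter on low counts that 14664 genes passed. The comparison asks what happened to the transcripts of the targeted gene and of its 2 paralogues, clone by clone. Both groups hold clones of the male line iPSC34.3, reprogrammed from wild-type mouse embryonic fibroblasts, and every clone carries the Pou5f1-EGFP transgene (genotype wt/wt;GFP/wt). The 3 knockout clones (14, 30 and 33, below replicates 1 to 3) are in addition labelled Tet1 Cas9 mut/mut, and the 3 non-targeted clones (49, 51 and 52, replicates 1 to 3) are not. The strain label names a Tet1tm1Kohx allele, whereas the genotype field opens with wt/wt in both groups. The labels give both groups the same protocol, in which cells at 14 passages received Cas9 ribonucleoprotein with a guide RNA to Tet1 plus a single-stranded donor DNA, then an enhancer of homology-directed repair for 12 h. Whether the non-targeted clones met the guide is not stated. Picked colonies went through 4 further passages, were expanded on embryonic fibroblast feeders and were taken off them before extraction of RNA. Each library is 1 clone of 1 parental line, so p-values here reflect how clones of that line vary.

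TET enzymes use iron and 2-oxoglutarate to oxidise 5-methylcytosine to 5-hydroxymethylcytosine and then to formyl and carboxyl forms, which leads to loss of DNA methylation by dilution or by base excision. Mouse pluripotent stem cells are known to express Tet1 and Tet2 strongly and Tet3 weakly, and Tet3 is known as the enzyme of the oocyte, the zygote and many differentiated cells. Tet1 and Tet3 carry a CXXC domain that binds CpG-rich DNA, whereas the CXXC part of an ancestral Tet2 became the separate neighbouring gene Cxxc4.

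The 3 genes share the catalytic core, so the stretch around its iron-binding histidine and aspartate is shown to let the paralogues be compared in sequence. All coordinates are on GRCm38, all 3 genes lie on the minus strand, and sequences are written 5′ to 3′ along the coding strand as the GENCODE transcripts give them. Capitals mark the codons from the histidine to the aspartate, which are codons 1652 to 1654 in Tet1 (exon 11 of Tet1-206, chr10:62814442-62814498), 1303 to 1305 in Tet2 (exon 10 of Tet2-204, chr3:133471346-133471402) and 1085 to 1087 in Tet3 (exon 10 of Tet3-203, chr6:83373200-83373256).
Tet1: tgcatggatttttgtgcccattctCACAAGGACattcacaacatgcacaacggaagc
Tet2: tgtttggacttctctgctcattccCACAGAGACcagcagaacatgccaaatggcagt
Tet3: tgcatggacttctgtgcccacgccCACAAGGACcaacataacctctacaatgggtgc
Position by position and without gaps, Tet1 and Tet2 share 39 of the 57 bases, Tet1 and Tet3 42, and Tet2 and Tet3 39. The longest stretch of coding sequence that Tet1 and Tet3 share exactly is 17 bases, shown next in capitals, and in both genes it crosses the junction of exons 6 and 7.
Tet1: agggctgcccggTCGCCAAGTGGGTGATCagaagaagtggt
Tet3: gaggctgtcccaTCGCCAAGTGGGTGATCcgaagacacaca
The longest run shared by Tet1 and Tet2 is 14 bases (exon 6 of Tet1, chr10:62832901-62832938, and exon 5 of Tet2, chr3:133481341-133481378).
Tet1: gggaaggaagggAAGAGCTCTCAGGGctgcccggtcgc
Tet2: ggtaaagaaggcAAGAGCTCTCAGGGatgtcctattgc
Tet2 and Tet3 share at most 13 bases. No shared run in the coding sequences therefore exceeds 17 bases on the same strand. The sources used here do not give the length of the sequencing reads.

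The deposited values are read counts over whole gene bodies, introns included, with totals of 11937909 to 16189554 per library. Over those bodies Tet1 spans 62804570 to 62899118 on chromosome 10, Tet2 133463679 to 133545139 on chromosome 3 and Tet3 83362373 to 83459084 on chromosome 6. Counting was by strand and left out reads overlapping 2 genes. Genes annotated on the same strand within Tet1 and Tet3 cover no exon of these genes and at most 3.67% of a body. The sources used here do not give the position of the edit, and a count over the gene body cannot separate Tet1 isoforms or edited from unedited transcripts. Where 3 values stand against 3 others, they are knockout replicates 1 to 3 against non-targeted replicates 1 to 3. Levels are CPM (the count of a gene per library of a common size), scaled with TMM factors, errors are SD with n = 3 unless an SE is named, and a log2 fold change is that of the knockout over the non-targeted group, from edgeR where no other tool is named. Over all genes edgeR's quasi-likelihood test called 0 of 14664 at an adjusted p under 0.05 (0.0%), with 3640 at an unadjusted p under 0.05 (24.8%). DESeq2 called 783 genes higher and 449 lower, 5.5% and 3.15% of the 14235 it tested. Knockout replicate 1 stood nearer to the non-targeted clones than the other 2 did. The chi-square per degree of freedom between its counts and theirs was 7.45 to 13.7, beside 21.6 to 51.2 for replicates 2 and 3. Between non-targeted clones it was 7.19 to 10.3, and between knockout replicate 1 and the other 2 knockout clones 22.2 and 39.2. Without knockout replicate 1 edgeR called 4404 genes (29.1%), so the values of the TET genes are also given without that clone. Knockout replicate 1 was singled out by these same counts, as the knockout clone nearest to the other group. Adjusted p-values without it are therefore a description of the fit and no independent support. The core pluripotency gene Pou5f1 was present throughout, at 684 ± 8.54 against 780 ± 59.6 CPM.

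Tet1, the targeted gene, was lower in every knockout clone than in any non-targeted clone, and its transcript was still detected in all of them. Its counts were 4764, 2795 and 4007 against 14345, 15491 and 14879, or 365, 231 and 288 against 1158, 966 and 1034 CPM. The knockout clones thus stood at 34.7%, 22.0% and 27.4% of the non-targeted mean, and the means were 295 ± 67.3 and 1053 ± 96.9 CPM, 3.57-fold apart. In polyadenylated RNA from a whole culture, fewer cells with the transcript and less transcript per cell cannot be told apart. The log2 fold change was -1.84 ± 0.16 (SE), and it had the smallest p of all genes tested in edgeR. After adjustment it missed the threshold there (edgeR adjusted p = 0.0703) and Tet1 fell in DESeq2 (-1.84 ± 0.18, adjusted p = 9.43e-20). It was also the only gene that limma voom called (-1.85, voom adjusted p = 0.0431; 0.00682% of genes). Without knockout replicate 1 it fell in edgeR (-2.02, adjusted p = 0.000154; 14.0% of genes were called lower there). Over 18 other settings the value ran from -2.03 to -1.68 and the adjusted p from 1.11e-56 to 0.371, and all 6 DESeq2 fits with 1 library left out called it. By size of the edgeR fold change Tet1 ranked 34 from the lowest.

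Tet2, the other TET gene that pluripotent cells are known to express strongly, did not pass the test and differed widely between the knockout clones. It had 3255, 1306 and 866 counts against 3463, 3519 and 3577. In CPM these were 249.6, 108 and 62.3 against 279, 219.5 and 248.6. Replicate 1 lay inside the non-targeted range at 100.1% of the non-targeted mean, while replicates 2 and 3 lay below it at 43.4% and 25.0%. The means were 140 ± 97.6 and 249 ± 29.96 CPM, with a log2 fold change of -0.83 ± 0.44 (SE; adjusted p = 0.274 in edgeR and 0.370 in DESeq2). Knockout replicates 1 and 3 both set this value, which was -1.56 without replicate 1 (edgeR adjusted p = 0.00200, DESeq2 adjusted p = 1.26e-05) and -0.48 without replicate 3. Such calls were common without replicate 1, where edgeR called 14.0% of genes lower and DESeq2 called 2061 of 15006 lower. Over the 18 other settings the direction held, with adjusted p from 1.26e-05 to 0.703, and the 2 that called Tet2 were those without replicate 1. The spread of log2 CPM over the knockout clones was 1.01 (SD), more than that of 98.3% of the 10584 genes with a mean of at least 5 CPM. In the non-targeted clones the SD was 0.17, above 74.9% of the same genes.

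Tet3, which had the lowest level of the 3 genes in all 6 clones, also per length, was higher in each knockout clone than in any non-targeted clone. It had 304, 445 and 793 counts against 174, 328 and 240, or 23.3, 36.8 and 57.0 against 14.0, 20.5 and 16.7 CPM. Against the non-targeted mean the knockout clones stood at 136.6%, 215.8% and 334.2%, so that replicate 1 was nearest and replicate 3 farthest. The means were 39.0 ± 17.0 and 17.1 ± 3.23 CPM, 2.29-fold apart. In edgeR the log2 fold change of 1.19 ± 0.31 (SE) did not pass (adjusted p = 0.120), and Tet3 rose in DESeq2 (1.19 ± 0.31, adjusted p = 0.00661). That call was lost when knockout replicate 2 or 3, or non-targeted replicate 1 or 3, was left out of DESeq2 (adjusted p = 0.0539, 0.0803, 0.115 and 0.108). Without knockout replicate 1 it rose in both tools (1.45; edgeR adjusted p = 0.00244, with 15.1% of genes called higher; DESeq2 adjusted p = 2.22e-08). Over the 18 other settings the value ran from 0.80 to 1.45 and the adjusted p from 2.22e-08 to 0.371. Groups that do not overlap were common in these libraries: 14.8% of tested genes lay wholly higher in the knockout and 14.7% wholly lower, so non-overlap by itself sets neither Tet3 nor Tet1 apart from other genes.

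**Figure D1:**
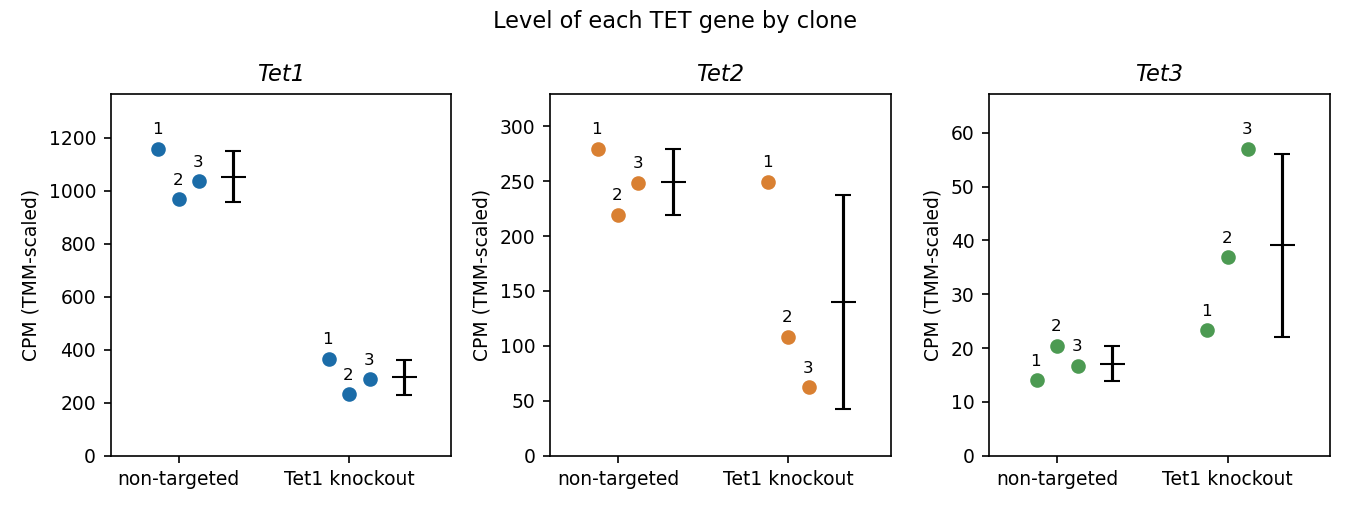
CPM scaled with TMM factors of Tet1, Tet2 and Tet3 in each clone (points, numbered by replicate), with the mean and SD of each group (bars, n = 3); each panel has its own linear axis from 0. The knockout clones lie below all non-targeted clones for Tet1 and above them for Tet3, and for Tet2 knockout replicate 1 lies inside the non-targeted range.

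**Figure D2:**
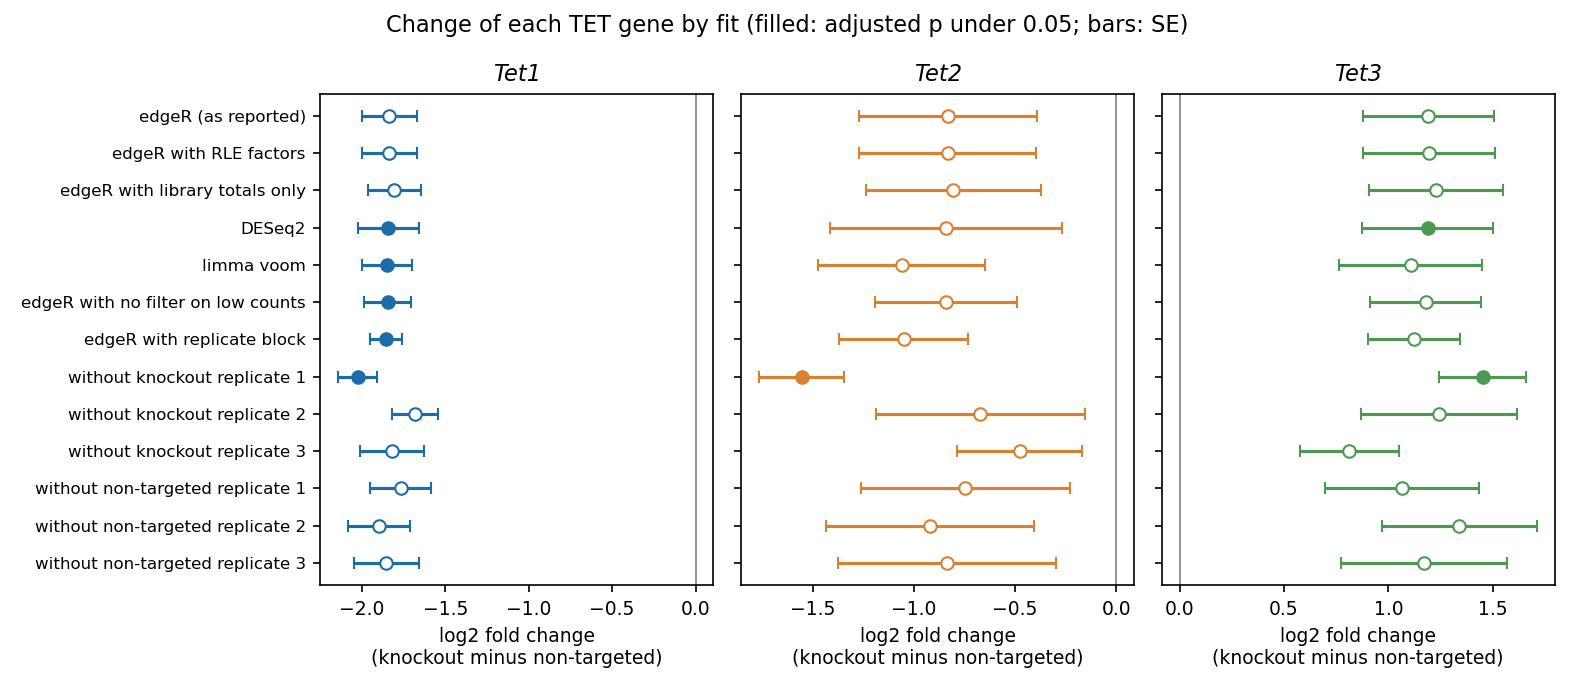
Log2 fold change (knockout minus non-targeted) of each gene under the edgeR test and 12 alternatives, with SE bars and filled points where the adjusted p was under 0.05. Each gene keeps its sign throughout, and Tet2 is filled in the fit without knockout replicate 1 only.

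The sum of the 3 TET genes was lower in every knockout clone. It came to 8323, 4546 and 5666 counts against 17982, 19338 and 18696. Scaled, these were 638, 376 and 407 CPM against 1451, 1206 and 1299 CPM, and the groups did not overlap. The knockout sums were 48.4%, 28.5% and 30.9% of the non-targeted mean, and the means (474 ± 143 and 1319 ± 123 CPM) were 2.78-fold apart. On the log2 scale the difference of the sums was -1.51, and -1.75 without knockout replicate 1. No test is given for sums and shares, because the genes were chosen with results of these data known. In CPM, the mean of Tet1 fell by 758, that of Tet2 was 109 lower and that of Tet3 was 22.0 higher. Per kilobase of the longest coding transcript the mean differences were -52.7 for Tet1, -11.9 for Tet2 and 2.02 CPM for Tet3. The higher level of Tet3 was thus small beside the lower level of Tet1 on both scales. Tet2 and Tet3 together reached 179 ± 82.3 against 266 ± 26.8 CPM, with overlapping groups.

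The makeup of the sum was nearly constant over the non-targeted clones and varied over the knockout clones. Tet1 gave 79.8%, 80.1% and 79.6% of the TET counts in the non-targeted replicates and 57.2%, 61.5% and 70.7% of them in the knockout ones. The exact (Clopper-Pearson) 95% intervals, which cover counting error only, were 56.2% to 58.3%, 60.1% to 62.9% and 69.5% to 71.9% for the knockout clones. The 3 knockout shares therefore differed from each other by more than counting error. Tet2 gave 39.1%, 28.7% and 15.3% in the knockout against 19.3%, 18.2% and 19.1%, so its share was above the non-targeted range in replicates 1 and 2 and below it in replicate 3. Tet3 gave 3.65%, 9.79% and 14.0% against 0.968%, 1.70% and 1.28%, above the non-targeted range in each knockout clone. As group means the shares were 63.1 ± 6.89% and 79.8 ± 0.265% for Tet1, 27.7 ± 11.9% and 18.9 ± 0.580% for Tet2, and 9.15 ± 5.20% and 1.32 ± 0.365% for Tet3. The 9.15% that Tet3 reached is a share of a smaller sum. The difference in the Tet2 share, 8.84 percentage points, was 3.14 without knockout replicate 1 and 15.1 without replicate 3. Without replicate 1 the differences for Tet1 and Tet3, -16.7 and 7.83 percentage points, were -13.7 and 10.6.

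**Figure D3:**
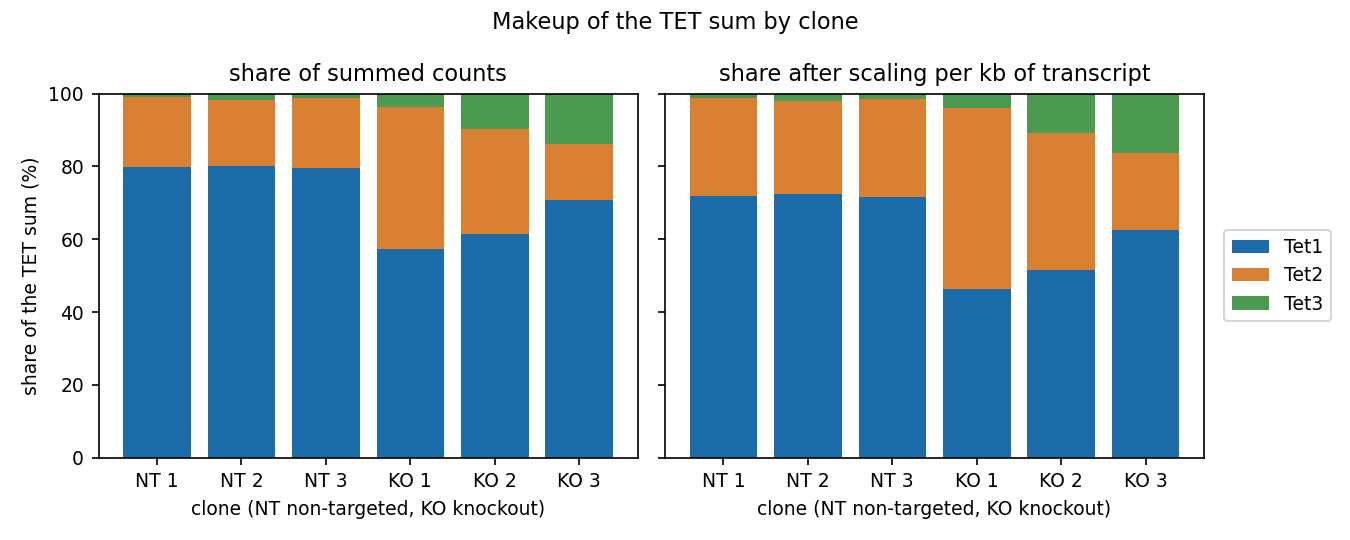
Share of the TET sum (%) that Tet1, Tet2 and Tet3 give in each clone, from counts (left) and after division by the length of the longest coding transcript (right). Tet1 gives 79.6% to 80.1% of the counts in the non-targeted clones and 57.2% to 70.7% in the knockout clones, and the Tet3 share is above the non-targeted range in each knockout clone.

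Between genes, levels were compared per kilobase of the longest coding transcript (14369 bases for Tet1, 9179 for Tet2 and 10904 for Tet3), although the counts also hold intronic reads. In the non-targeted clones the order was Tet1 at 80.6, 67.3 and 72.0 CPM per kilobase, Tet2 at 30.4, 23.9 and 27.1, and Tet3 at 1.29, 1.88 and 1.53, with no overlap between neighbours in that order. In knockout replicates 1 to 3 Tet1 had 25.4, 16.1 and 20.1, Tet2 27.2, 11.8 and 6.78, and Tet3 2.14, 3.38 and 5.23 CPM per kilobase. There Tet1 and Tet2 overlapped across clones, and Tet2 lay slightly above Tet1 in replicate 1. That order was not kept per kilobase of coding sequence, where Tet1 had 59.7 and Tet2 43.3 CPM per kilobase in the same clone. Tet2 and Tet3 were apart by ratios of CPM of 10.7, 2.93 and 1.09 against 19.9, 10.7 and 14.9. In knockout replicate 3 the counts of these 2 genes, 866 and 793, were thus close to equal. The ratio of Tet1 to Tet3 was 15.7, 6.28 and 5.05 against 82.4, 47.2 and 62.0.

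Tet2 and Tet3 varied over the knockout clones together with markers of cell state. As background for the marker lists, 24.8% of all genes tested had an unadjusted p under 0.05 in edgeR. DESeq2 called 5.5% of genes higher and 3.15% lower, and the median log2 fold change in edgeR was 0.00. Of 15 markers of naive pluripotency, 14 were tested and all 14 lay below 0 in mean fold change, with 0 called by edgeR (2 at an unadjusted p under 0.05) and 0 by DESeq2. Sox2 is listed at 0 in every library and lies within Sox2ot on the same strand. The list's median log2 level in the knockout clones, with the non-targeted mean at 0, was -0.10, -0.51 and -1.17, the same order of clones as for Tet2. Its summed level ran from 2929 to 5444 CPM over the knockout clones and from 5044 to 5809 CPM over the others. Of 20 fibroblast markers, as feeder cells would carry, 18 were tested, edgeR called 0 (15 at an unadjusted p under 0.05) and 9 rose in DESeq2, and their median log2 level in knockout replicates 1 to 3 was 0.64, 0.76 and 1.98, the order of clones seen for Tet3. Their summed level ran from 1506 to 2022 CPM over the knockout clones and from 1584 to 1961 CPM over the others and is carried mostly by Fn1 and Vim, and no marker was at 0. Col1a1, a defining fibroblast collagen, had 39.4, 37.1 and 123 against 18.8, 30.8 and 26.4 CPM. It missed both tests (adjusted p = 0.147 in edgeR and 0.125 in DESeq2). Of the 18 tested, 17 lay above 0 in fold change. Fn1 lay below 0, with 1419, 872 and 697 against 1489, 1114 and 1388 CPM. Of 14 primitive endoderm markers 12 were tested, edgeR called 0 (6 at an unadjusted p under 0.05) and 5 rose in DESeq2. Their medians were 0.56, 0.61 and 1.15, which is also the order of clones seen for Tet3. Their summed levels were 730.1 to 1002 against 730.8 to 782 CPM, and none was at 0. The 12 markers of formative and primed pluripotency had medians of 0.25, 0.11 and 0.06, and none was at 0. edgeR called 0 of them (7 at an unadjusted p under 0.05) and 2 rose in DESeq2, Sall2 (1.67, DESeq2 adjusted p = 0.00423) and Sox3 (1.58, DESeq2 adjusted p = 0.00656). Sall2 had 22.5, 53.6 and 70.9 against 8.80, 23.5 and 13.7 CPM. Sox3 had 7.28, 17.0 and 22.2 against 4.20, 7.24 and 4.03 CPM. The list was split, with 7 above 0 in mean fold change and 5 below. Its summed levels were 1199, 1567 and 2000 against 1126, 1557 and 1457 CPM. That order of knockout clones is opposite to that of the medians and the same as for Tet3. Dnmt3b, the most abundant of them, had 535, 940 and 1287 against 539, 927 and 817 CPM. The part of these cell states in the levels of Tet2 and Tet3 was not tested, and an order of 3 clones is a description only. Tet1 did not share this order, being lowest in replicate 2.

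**Figure D4:**
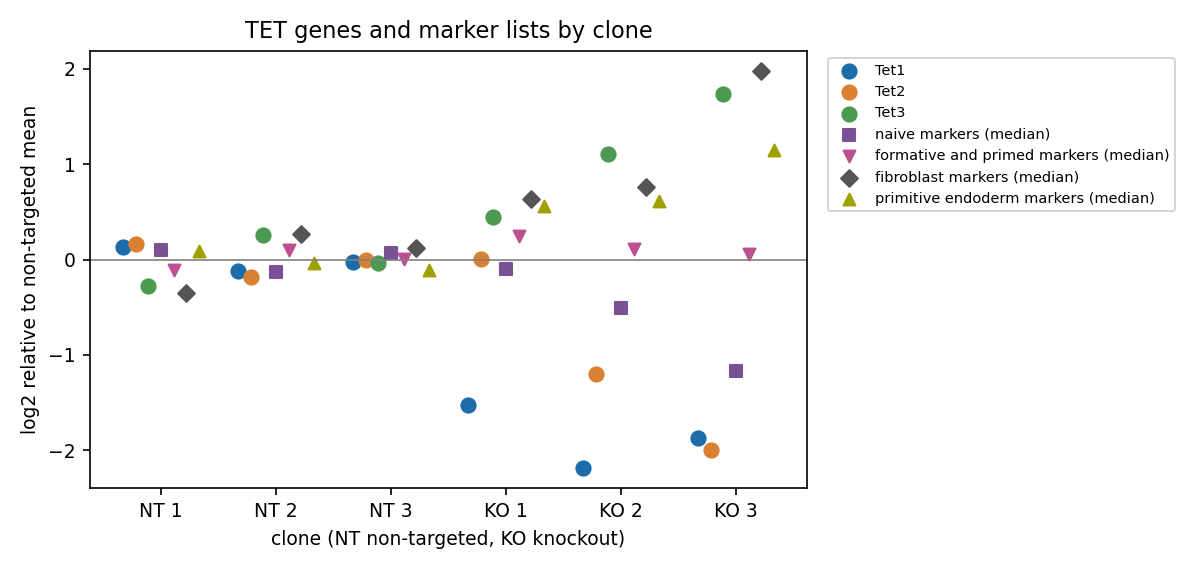
Log2 level relative to the mean of the non-targeted clones for each TET gene (circles) and the median of each marker list (other symbols), by clone. Knockout replicate 3 has the lowest Tet2 and naive markers and the highest Tet3, fibroblast and primitive endoderm markers. Of the knockout clones, replicate 1 lies nearest to 0 for these, and Tet1 is low in all 3.

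The genes with the most similar profiles were sought among 9966 annotated genes with a mean of at least 5 CPM, by the root mean square (RMS) difference of centred log2 CPM over the 6 libraries. The nearest to Tet2 were Tead4, a transcription factor of the Hippo pathway (RMS 0.06), Smtnl2 (0.09), the naive pluripotency factor Klf4 (0.12), the tetraspanin Cd9 (0.12) and Rab27a, a small GTPase of secretory vesicles (0.13). Klf4 had 622, 221 and 122 against 593, 438 and 531 CPM. Tead4 and Cd9 lie on chromosome 6 in regions where surrounding genes were also low in 2 clones. The 10 tested genes around Tead4 had medians of 0.11, -0.88 and -1.05 in knockout replicates 1 to 3, and those around Cd9 -0.04, -0.66 and -0.72, whereas those around Klf4 stayed within 0.06 of 0 in all 3. The nearest to Tet3 were B4galnt1, a ganglioside synthase (0.04), the Notch regulator Nrarp (0.08), the galactosyltransferase B4galt2 (0.10), Obsl1 (0.10) and Prrx1, a mesenchymal homeobox gene that is on the fibroblast list (0.10). B4galnt1 had 6.29, 9.68 and 14.9 against 3.55, 5.74 and 4.45 CPM. Tet1 had looser neighbours, D1Pas1 (0.19), Rpl10l (0.23), Tmem40 (0.26), Hmcn2 (0.29) and Clca3b (0.31). D1Pas1, a testis-expressed DEAD-box helicase gene, had 20.8, 11.2 and 11.6 against 52.9, 42.0 and 59.3 CPM. Rpl10l, a retrogene for a ribosomal protein of the testis, had 13.3, 7.12 and 6.61 against 28.4, 23.5 and 29.3 CPM. Tmem40 also lies on chromosome 6, and the 10 tested genes around it had medians of -0.13, -1.07 and -1.06 in the knockout clones. These profiles rest on 6 libraries and are a description.

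The tested genes beside each TET gene, 5 on either side, had median fold changes near 0. As background, DESeq2 called 8.65% of all genes and edgeR 0.0%, with 24.8% at an unadjusted p under 0.05 in edgeR. Beside Tet1 the 10 neighbours had a median log2 fold change of -0.02 (range -0.44 to 0.95). edgeR called 0 of them, with 2 at an unadjusted p under 0.05. Hnrnph3, which encodes an RNA-binding protein, lies 116 kb beyond the higher-coordinate end of Tet1. It rose in DESeq2 (0.95 ± 0.28 SE, adjusted p = 0.0193, with 0.128 in edgeR) and is the only one of the 10 that DESeq2 called. Slc25a16, a mitochondrial carrier gene and the nearest tested gene on the higher-coordinate side of Tet1, had -0.44 ± 0.19 and missed both tests. Beside Tet2 the median was -0.14 (range -0.70 to 0.97), with 0 of 10 called by either tool and 1 at an unadjusted p under 0.05 in edgeR. Among them is Cxxc4, with 0.537, 1.65 and 2.73 against 0.484, 1.75 and 0.209 CPM, so its groups overlapped. Beside Tet3, on chromosome 6, the median was 0.03 (range -1.24 to 0.48), again with 0 of 10 called by either tool and 1 at an unadjusted p under 0.05 in edgeR. By clone, the log2 levels of these neighbours were set to 0 at the mean of the non-targeted group. The genes around Tet1 then had medians of -0.01, 0.00 and -0.03 in knockout replicates 1 to 3. Those around Tet2 had 0.02, -0.14 and -0.23, the same order of clones as Tet2 itself, and 8 of the 10 had a fold change below 0. The lowest of them in fold change, the sodium-proton exchanger gene Slc9b1, lies 1803 kb beyond the higher-coordinate end of Tet2 and had 0.05, -1.14 and -1.40. Ppa2, the nearest of them to Tet2 at 85.4 kb, had 0.03, -0.46 and -0.22. Those around Tet3 had -0.03, 0.00 and 0.00, while the genes around Tead4 and Cd9 on the same chromosome were lower in replicates 2 and 3.

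**Figure D5:**
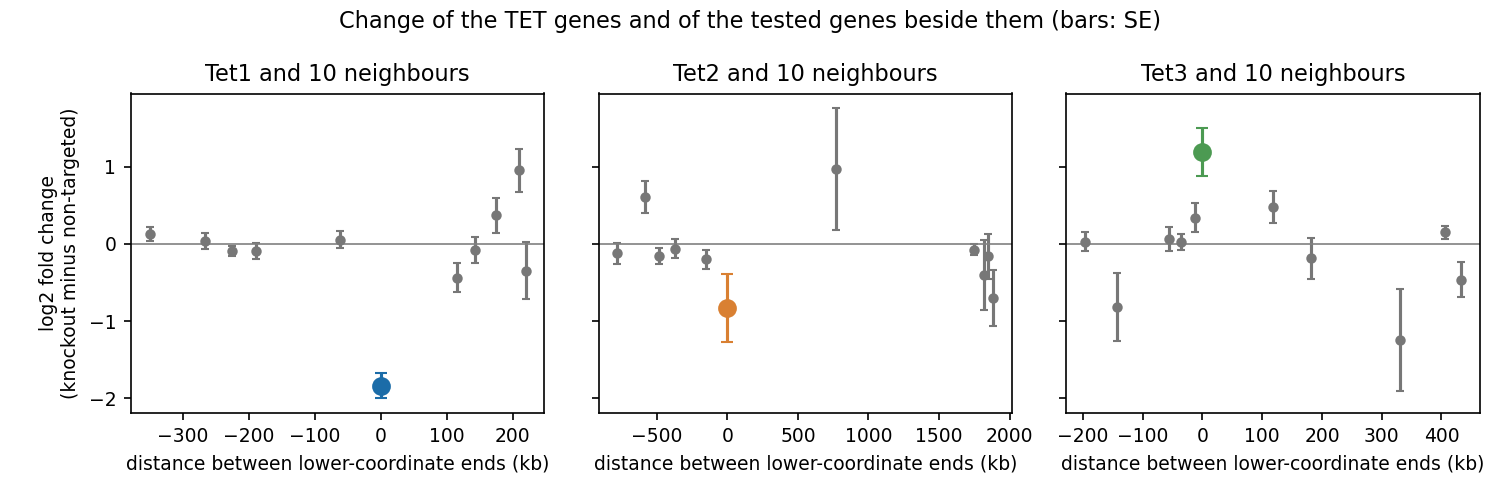
Log2 fold change (knockout minus non-targeted, with SE bars) of each TET gene at 0 and of the 5 tested genes on either side, against the distance between their lower-coordinate ends in kilobases. The medians of the neighbours are -0.02 beside Tet1, -0.14 beside Tet2 and 0.03 beside Tet3.

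Other genes of the methylcytosine pathway were read from 4 lists of 53 genes, all of which were tested. edgeR called 0 of the 53, with 20 at an unadjusted p under 0.05 (24.8% of all genes tested were), and DESeq2 called 5, 2 higher and 3 lower. That is 9.43% beside 8.65% of all genes, and the median log2 fold change was -0.14 beside 0.00 over all genes tested. Among 6 writers and maintenance factors Dnmt3l, the cofactor of the de novo methyltransferases, fell in DESeq2 (-0.50 ± 0.16 SE, DESeq2 adjusted p = 0.0235), and the list's median was -0.08. The maintenance methyltransferase Dnmt1 had 512, 466 and 442 against 597, 545 and 617 CPM, which do not overlap, and missed both tests (-0.31 ± 0.08; adjusted p = 0.120 in edgeR and 0.0534 in DESeq2). Among 14 readers and base excision genes Gadd45b, a stress-induced demethylation adaptor, rose in DESeq2 (0.66 ± 0.23, DESeq2 adjusted p = 0.0477), with a list median of -0.02. The largest fold changes of this list were below 0, in Neil2 (-0.93 ± 0.32) and Mbd4 (-0.88 ± 0.35). Both missed both tests (adjusted p = 0.148 and 0.179 in edgeR, 0.0629 and 0.0701 in DESeq2). Of the 14, 3 lay wholly lower and 0 wholly higher in the knockout, beside 14.7% and 14.8% of all genes. Tdg, the glycosylase that removes formyl- and carboxylcytosine, had 28.9 ± 4.47 and 26.1 ± 1.52 CPM (0.15 ± 0.14). Among 18 TET partners and recruiters Sin3a, the core of the deacetylase complex to which Tet1 binds, fell in DESeq2 (-0.54 ± 0.14, DESeq2 adjusted p = 0.00356). It had 263, 219 and 199.8 against 325, 320 and 344 CPM, without overlap, and the list's median was -0.19. Ogt, the glycosyltransferase partner of TET proteins, had -0.17 ± 0.12.

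The fourth list holds 15 genes that make or use 2-oxoglutarate, 2-hydroxyglutarate and ascorbate, cofactors and inhibitors of the TET reaction, and its median was -0.11. Slc23a2, a sodium-dependent transporter that brings ascorbate into cells, fell in DESeq2 (-0.48 ± 0.11 SE, adjusted p = 0.000773), with an edgeR adjusted p of 0.106. Its levels were 72.5, 68.8 and 75.7 against 104, 98.9 and 98.8 CPM, so all 3 knockout clones stood together, replicate 1 included. Phgdh, which starts serine synthesis, rose in DESeq2 (0.45 ± 0.15, adjusted p = 0.0400; edgeR gave an adjusted p of 0.120), with 80.5, 102 and 103 against 63.8, 76.0 and 68.0 CPM. Psat1, the next enzyme of that route and a source of 2-oxoglutarate, had 458, 509 and 481 against 398, 436 and 414 CPM and missed both tests (0.21 ± 0.07; adjusted p = 0.143 in edgeR and 0.159 in DESeq2). Slc23a1, the other ascorbate transporter, had 3.76, 12.5 and 17.8 against 2.66, 6.61 and 4.24 CPM (1.32 ± 0.56; adjusted p = 0.196 in edgeR and 0.0857 in DESeq2). The isocitrate dehydrogenase genes Idh1 and Idh2 had -0.26 ± 0.14 and -0.35 ± 0.18, and neither passed either test. Over the 4 lists, 3 genes lay wholly higher and 13 wholly lower in the knockout clones, 30.2% of the 53 beside 29.5% of all genes. By direction, 14.8% of all genes lay wholly higher and 14.7% wholly lower, so the listed genes leaned lower. That lean was not tested.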

How the data were processed

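Polyadenylated RNA of 6 clonal iPSC lines was sequenced with a stranded kit, in the same sequencing batch per the labels. The authors deposited whole-number counts per gene, not normalized. Alignment and analysis tools named in the submitters' processing notes are HISAT2 2.1.0, DESeq2 1.18.1 and featureCounts 1.5.3, on mm10. Per the file headers, featureCounts 1.6.2 counted reverse-stranded reads over whole genes (GENCODE M15, GRCm38.p5), with no option for multi-mapping reads or for reads that overlap several genes.

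Genes were filtered with filterByExpr (minimum count 10, minimum total 15), which kept 14664 of 25600 genes with a count, scaled with TMM and compared with edgeR's quasi-likelihood test (edgeR 4.0.16, R 4.3.3, group as the only term, Benjamini-Hochberg adjustment over all genes tested, threshold 0.05). That test returns no SE, so each edgeR SE is the absolute log2 fold change divided by the square root of the F statistic. The common biological coefficient of variation was 0.188. DESeq2 1.42.0, limma voom (limma 3.58.1), RLE factors, library totals alone, no filter, a replicate block and leaving out each library were alternatives; DESeq2 with a library left out and shares per coding length were added after seeing the data. The fit was tested on simulated data. Shares are of the summed TET count, with exact 95% intervals. Sequences, exons and lengths come from GENCODE M21 on GRCm38, aligned with Biopython 1.88. The members and lists were chosen with earlier results of these data known. Named genes are the 3 members, the 5 nearest profiles of each (predicted gene models left out), called list genes and list genes chosen after their values were seen.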

Additional observations from a re-analysis of the deposited data

How the results depend on the processing

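Tet1, Tet2 and Tet3 each kept their direction under all 18 alternatives, and the edgeR calls of none of them changed with RLE factors or library totals alone. Tet1, not called in edgeR, was called in DESeq2 (-1.84), limma voom (-1.85), edgeR with no filter (-1.85) and with the replicate block (-1.86). Tet3 was called in DESeq2 (1.19). Leaving out 1 library, the edgeR values ran from -2.02 to -1.68 for Tet1, -1.56 to -0.48 for Tet2 and 0.81 to 1.45 for Tet3. In DESeq2 without knockout replicates 1 to 3 in turn and then without each non-targeted replicate, Tet1 was called at -2.03, -1.69, -1.83, -1.77, -1.90 and -1.85. In edgeR each of the 3 was called without knockout replicate 1 and in no other such fit, and in DESeq2 Tet2 was called without knockout replicate 1 (-1.56), and Tet3 without knockout replicate 1 (1.45) and without non-targeted replicate 2 (1.34). The cause was not tested. The number of genes called, 0 in edgeR, was 1232 in DESeq2, 1 in voom, 159 with no filter, 3 with the block, 4404 in edgeR without knockout replicate 1 and 0 without any other library, and in DESeq2 with 1 library left out, in the order above, 4106, 306, 265, 183, 763 and 128. The replicate block treats the replicate number as a pairing; same-numbered deviations correlated at 0.458, 0.109 and -0.02, and knockout replicate 3 correlated best with non-targeted replicate 2, so the numbers are not taken to pair the clones. The log2 difference of the TET sum (-1.51) ran from -1.75 to -1.37 over its alternatives, and the differences in shares moved by less than the spread between clones in all of theirs. Tet3 had the lowest counts, 174 to 793, and Tet2 the largest SE in edgeR, 0.44 beside 0.31 for Tet3 and 0.16 for Tet1.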
